A study of Homo sapiens with 9 samples.

Results

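CD3D, CD3E, CD3G and CD247 encode the invariant chains of the T cell receptor complex. Their accessible chromatin was described here from 20 of the 40703 merged regions in the FAIRE-seq peak lists. A merged region joins overlapping or touching peaks of the 4 lists, and a region was taken as a member when it overlapped the body of one of the 4 genes or the 50 kb on either side of its transcription start site (TSS) in GENCODE on GRCh37. Of the 20 regions, 13 lay at the CD3E, CD3D and CD3G genes on chromosome 11 and 7 lay at CD247 on chromosome 1.

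The receptor that recognises antigen on a T cell has no signalling tail of its own. It is held at the surface with CD3γ (CD3G), CD3δ (CD3D), CD3ε (CD3E) and the ζ chain (CD247), whose tails carry the tyrosine motifs (ITAMs) that the kinase LCK phosphorylates and that the kinase ZAP70 then binds. CD3E pairs with either CD3D or CD3G, ζ pairs with itself, and loss of a chain limits the transport of the whole receptor to the surface. These genes are used from early thymic stages on and serve as markers of the T lineage.

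FAIRE-seq (formaldehyde-assisted isolation of regulatory elements) sequences the DNA that escapes cross-linking to protein, and its peaks mark open chromatin. The cells were Jurkat, clone E6-1 of a human T cell leukaemia line, so each value describes 1 clone in culture. The study had 8 FAIRE libraries and 1 total input, with 1 library per state, and by the labels 5 of the 9 samples were not analysed here. The labels assign the 4 peak lists to NS cells (never stimulated) and SW cells (stimulus withdrawn), each after DMSO, the vehicle, or after 1 h of 15 µM rottlerin, a PKC inhibitor. By the labels, SW cells received PMA (24 ng/mL) and calcium ionophore (1 µM) for 4 h and then rested for 1 day without stimulus, while the methods give a shorter first stimulation. The study also had stimulated (ST) and re-stimulated (RS) cells.

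The 4 lists cannot be read by these labels alone. The methods describe peak calls on the DMSO samples, not on the rottlerin samples, and merging the 4 lists here gave 40731 regions, the total that the methods give for the DMSO samples. The lists may thus be those of the NS, ST, SW and RS cells after DMSO, in which case none comes from cells that received rottlerin. If the labels with DMSO hold, those labelled rottlerin would then come from stimulated and re-stimulated cells. The total does not show which list belongs to which state. A list is therefore named "labelled NS DMSO", "labelled SW DMSO", "labelled NS rottlerin" or "labelled SW rottlerin" throughout, in that order, and no direction is read from the names. The lists held 18977, 20132, 23835 and 30409 peaks on the autosomes, X and Y. Column 7 of each list, the fold enrichment of FAIRE reads over total input, had medians of 4.05, 4.03, 4.08 and 4.03. Read depth is unknown, each list comes from 1 library, and there is thus no replicate error and no test. Intervals given below cover counting error over regions only.

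The cell type was checked with marker genes. Of 11 T cell markers in the annotation, 7 had a peak within 1 kb of the TSS in at least 1 list (63.6%, against 44.9% of coding genes), among them LCK, CD28 and BCL11B. In every list it was 3 of the 11 (27.3%, against 30.4%). CD2, CD7, TRAC and GATA3 had none in any list, and for TRAC this was the start of the constant gene alone. The 7 B cell, 7 myeloid, 4 NK cell, 4 erythroid and 4 epithelial markers had no such peak in any list.

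The sequence upstream of CD3D is given first because a peak covered it in every list. It is the 200 bases before the TSS on GRCh37, written 5′ to 3′ on the gene's strand, at chr11:118213421-118213620 (minus strand). Capitals mark letter matches, on either strand, to 12 short motifs: AP1 (TGANTCA), ETS (GGAAGT), NFAT (GGAAAA), RUNX (TGTGGT), the GATA letters AGATAA, NFkB (GGGA, any base, TT, any base, then CC), EGR (GCGTGGGNG), TCF/LEF (CTTTGA), CRE (TGACGTNA) and the E-boxes spelled CACCTG, or with other middle bases as CAGCTG, or else as CATCTG. A match is a run of letters and not an occupied site.
CD3D start: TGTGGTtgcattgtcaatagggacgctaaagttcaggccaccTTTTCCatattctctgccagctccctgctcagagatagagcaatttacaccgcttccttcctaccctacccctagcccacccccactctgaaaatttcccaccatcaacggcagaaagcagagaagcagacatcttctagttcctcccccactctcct

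The CD3D stretch begins with a RUNX match at −200 bp and has an NFAT match at −158 bp from the TSS. Among the same 200 bases of 20163 protein-coding genes, 8.22% hold the RUNX letters and 15.6% the NFAT letters.

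Around the CD247 start, and just inside CD3D, the peaks lay partly over transcribed sequence, so 30 bases around each match are given on the gene's strand. The first CD247 window (chr1:167487829-167487858, minus strand) holds CACCTG and TCF/LEF matches at 26 and 37 bp past the start of the gene record. The second (chr1:167487802-167487831, minus strand) holds an ETS match at 58 bp. The CD3D window (chr11:118213389-118213418, minus strand) holds the AP1 letters at 14 bp past the TSS, with capitals again marking the matches.
CD247 E-box and TCF/LEF: ctgtcggCAGGTGctttcTCAAAGgcccca
CD247 ETS: ccacagtcctccACTTCCtggggaggtagc
CD3D AP1: ttccggtacctgTGAGTCAgctaggggagg

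The last stretch lies away from the starts, in the first intron of CD247 (chr1:167443457-167443756, minus strand), and is shown because it had a peak in every list and the highest fold enrichment of its locus in the list labelled NS DMSO. It holds GATA, TCF/LEF and CACCTG matches.
CD247 intron: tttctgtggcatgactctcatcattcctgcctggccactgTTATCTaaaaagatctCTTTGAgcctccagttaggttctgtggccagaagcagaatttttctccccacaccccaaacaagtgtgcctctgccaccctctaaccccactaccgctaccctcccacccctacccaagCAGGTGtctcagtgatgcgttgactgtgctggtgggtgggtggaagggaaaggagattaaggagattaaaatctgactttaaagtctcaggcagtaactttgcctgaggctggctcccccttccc

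The CD3E, CD3D and CD3G genes lie next to each other. CD3E (ENSG00000198851) occupies chr11:118175445-118186890 on the plus strand, CD3D (ENSG00000167286) chr11:118209790-118213420 on the minus strand and CD3G (ENSG00000160654) chr11:118215059-118225876 on the plus strand. CD3D and CD3G are divergent, with TSSs 1.64 kb apart, and the CD3E TSS lies 38.0 kb from that of CD3D. CD247 (ENSG00000198821) occupies chr1:167394264-167487877 on the minus strand.

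The joint window on chromosome 11 spanned 140 kb and held 13 regions, or 9.31 per 100 kb. The CD247 window spanned 144 kb and held 7, or 4.87 per 100 kb. By gene, CD3D had 10 regions, CD3E 12, CD3G 10 and CD247 7, and 9 of the 13 regions on chromosome 11 were counted for all 3 genes there. The median protein-coding gene had 3 regions by the same rule. Fewer regions than at CD3E were found at 98.3% of 20163 protein-coding genes, fewer than at CD3D or CD3G at 96.5%, and fewer than at CD247 at 87.0%. Longer genes have longer windows. Per 100 kb the median was 2.12, and the shares of genes with a lower density were 99.7% for CD3E, 98.8% for CD3D and CD3G and 79.5% for CD247. The regions are called E1 to E13 along chromosome 11 and Z1 to Z7 along chromosome 1.

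**Figure D1:**
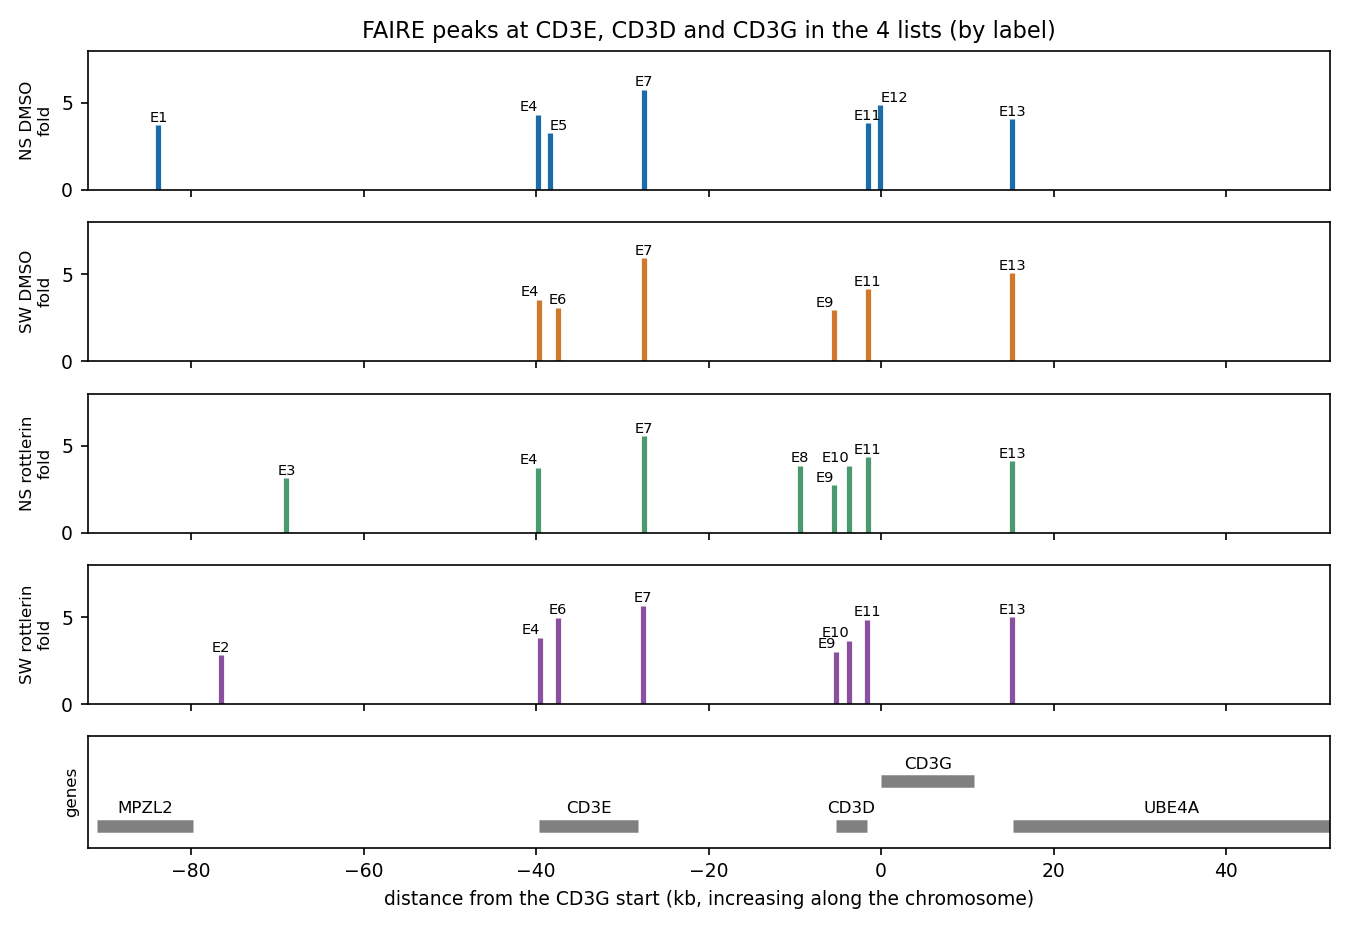
Peaks in each list at CD3E, CD3D and CD3G, with the distance from the CD3G start in kb on the x axis and fold enrichment over total input on the y axis of each row; grey bars in the last row are genes. E4, E7, E11 and E13 stand in every row, while E12, at the CD3G start, stands in the top row alone at 4.87.

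CD3D and CD3E had a peak over the TSS in every list, CD3G in 1 list and CD247, at the start of its gene record, in 2 lists. By the wider measure of a peak within 1 kb of the TSS, 30.4% of 20163 protein-coding genes had one in every list. Among the 9058 genes with such a peak in any list, the share was 67.8%. At CD3D, the chain that pairs with CD3E in the CD3δε dimer, region E11 (chr11:118213228-118213723, 496 bp) had fold enrichments of 3.84, 4.14, 4.33 and 4.87 in the lists in the order above. These were higher than 40.8%, 54.8%, 58.8% and 75.2% of the peaks of the same list. The list labelled NS DMSO was the lowest and that labelled SW rottlerin the highest. The 4 peaks together reached from −303 to 192 bp of the TSS, and 7 of the 8 CD3D transcripts start within 300 bp of the region.

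At CD3E, the chain shared by both CD3 dimers, region E4 (chr11:118175060-118175668, 609 bp) had fold enrichments of 4.31, 3.55, 3.75 and 3.81. Here the list labelled NS DMSO was the highest, whereas at CD3D it was the lowest. The values were higher than 59.7%, 28.0%, 35.9% and 40.7% of the peaks of the same list. The peak labelled SW rottlerin ran from −135 to 223 bp of the TSS, whereas the others began at −385, −337 and −385 bp.

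At CD3G, the partner of CD3E in the CD3γε dimer, region E12 (chr11:118214858-118215095, 238 bp) had a peak only in the list labelled NS DMSO, at 4.87. It ran from −201 to 36 bp of the TSS, its value was higher than 76.4% of that list's peaks, and all 7 CD3G transcripts start within 300 bp of it. This was the highest of the 3 values at CD3 gene starts in that list, and E11, 1134 bp away, had a peak there too. A peak missing from a list passed no threshold there, and reads below the threshold were not seen.

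At CD247, the ζ chain, region Z5 (chr1:167487766-167487952, 187 bp) had peaks in the lists labelled SW DMSO, at 3.76, and NS rottlerin, at 4.02. The start of the canonical transcript, 111 bp inside the gene record, is the edge base of the region and of the peak labelled NS rottlerin. The peak labelled SW DMSO ended 107 bp inside the record and did not reach it. Of the 40 CD247 transcripts, 20 start within 300 bp of the region. In the list labelled SW rottlerin the nearest peak was Z4 (chr1:167486908-167487106), at 3.04 and 659 bp away within intron 1. The list labelled NS DMSO had no peak within 1 kb of this start.

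**Figure D2:**
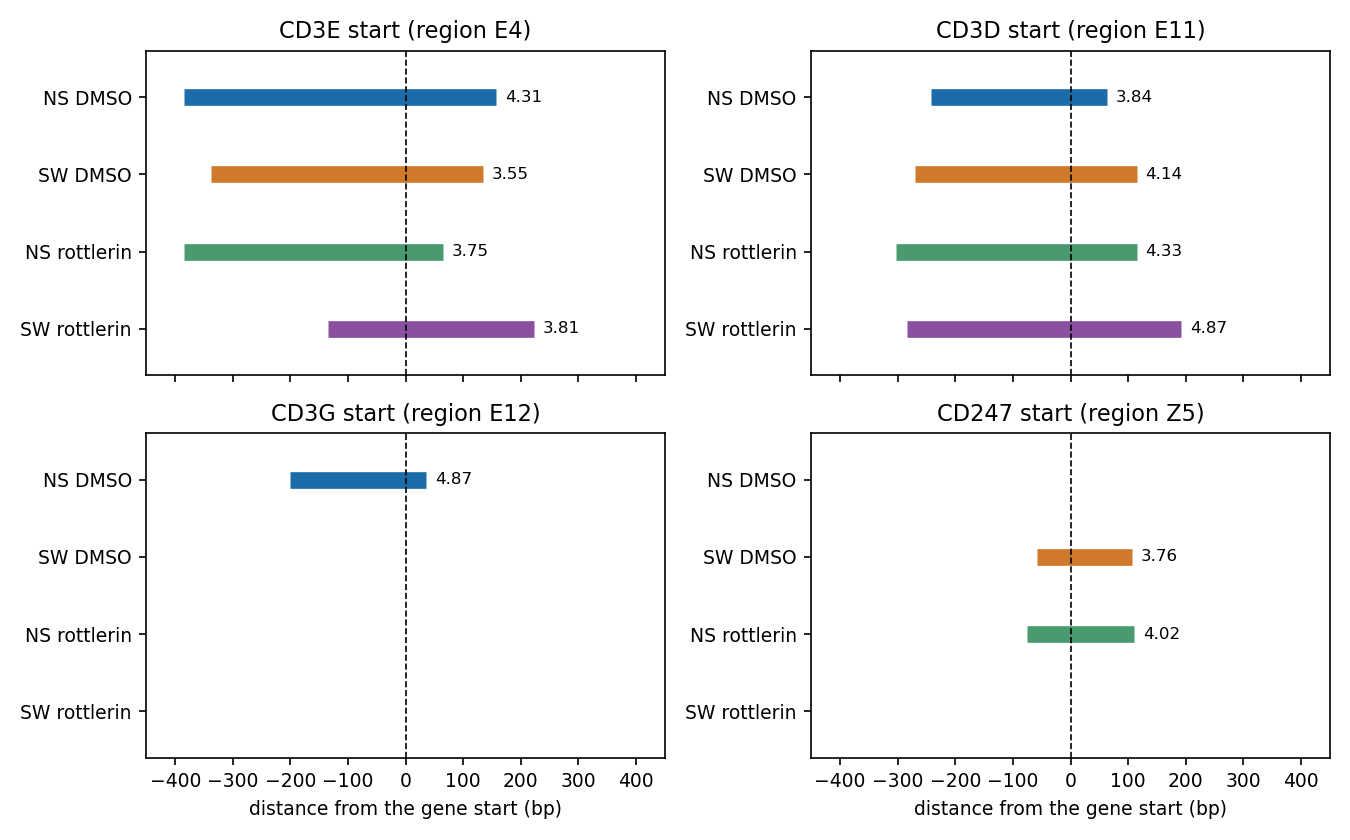
Extent of each peak over the 4 gene starts, as distance from the start in bp along the direction of transcription, with 1 row per list and the fold enrichment printed at the end of each bar. The dashed line is the gene start; CD3E and CD3D have a bar in each row, CD3G in 1 and CD247 in 2.

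The starts were next set against those of other genes. Among protein-coding genes with a peak within 1 kb of the TSS, medians were 4.45, 4.39, 4.46 and 4.51 over 6897, 7134, 7761 and 8560 genes. CD3D was higher than 28.9%, 41.3%, 45.5% and 60.0% of them, CD3E than 45.4%, 20.3%, 26.1% and 27.4%, and CD3G, in its 1 list, than 63.6%. Most member values were below the median, the exceptions being CD3G and the CD3D value in the list labelled SW rottlerin. CD247 was higher than 27.8%, 35.9% and 6.30% of them in the lists where it had a peak, the last being Z4. The order of the levels in the list labelled NS DMSO was CD3G, CD3E and CD3D, and in that labelled SW rottlerin CD3D, CD3E and CD247, and with 1 library per list no spread tells neighbours in this order apart.

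The member promoters were poor in CpG. The 200 bases before the TSS held 3 CpG at CD3D, 2 at CD3E, 1 at CD3G and 2 at CD247, where the median of protein-coding genes was 12. The G and C share was 51.0%, 52.5%, 58.0% and 38.5%, below the median of 60.5%. At CD247 these bases precede the gene record, whose start lies 111 bp before the canonical start. The central 300 bp of Z5, over the start of the record, have 50.0% G and C and 6 CpG.

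The highest fold enrichments at the chromosome 11 locus were not at a gene start. Region E7 (chr11:118187246-118187702, 457 bp), intergenic and 356 bp past the 3′ end of CD3E, had 5.75, 5.93, 5.54 and 5.65. It was the highest of the locus in every list, above 90.4%, 93.0%, 87.2% and 88.2% of all peaks of the same list, and its values lay closer together than those of E4 or E11. Its middle is 12.0 kb from the CD3E TSS, and the central 300 bp have 63.0% G and C and 12 CpG.

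Within CD3E, the second intron held E5 (chr11:118176508-118176722), with a peak only in the list labelled NS DMSO at 3.26. E6 (chr11:118177332-118177748), 609 bp further on, had peaks in both lists labelled SW, at 3.08 in that labelled SW DMSO and 4.96 in that labelled SW rottlerin, and none in those labelled NS. The higher value exceeded 77.4% of its list's peaks and the lower 9.04%.

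At the 3′ end of CD3D, E9 (chr11:118209385-118210324, 940 bp) was absent from the list labelled NS DMSO and low in the others, at 2.93, 2.72 and 3.01. The peak labelled SW rottlerin covered the last exon with its 3′ untranslated part and reached 405 bp past the gene's end, while those labelled SW DMSO and NS rottlerin lay wholly past the end. Within the gene, E10 (chr11:118211239-118211440), in intron 1 of the canonical transcript and beside the start of another transcript, had peaks at 3.86 and 3.65 in the lists labelled NS rottlerin and SW rottlerin only. Between CD3E and CD3D, E8 (chr11:118205458-118205725) had a peak at 3.85 in the list labelled NS rottlerin alone.

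The remaining regions on chromosome 11 lay at neighbouring genes. E13 (chr11:118230098-118230392) at the start of UBE4A, a ubiquitin ligase gene, had 4.06, 5.06, 4.12 and 4.99, with 23 CpG in its central 300 bp, and lies 15.2 kb from the CD3G TSS. E1 in an intron of MPZL2 (3.73 in the list labelled NS DMSO), E2 upstream of MPZL2 (2.83 in that labelled SW rottlerin) and E3 further off (3.13 in that labelled NS rottlerin) each had a peak in 1 list.

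**Figure D3:**
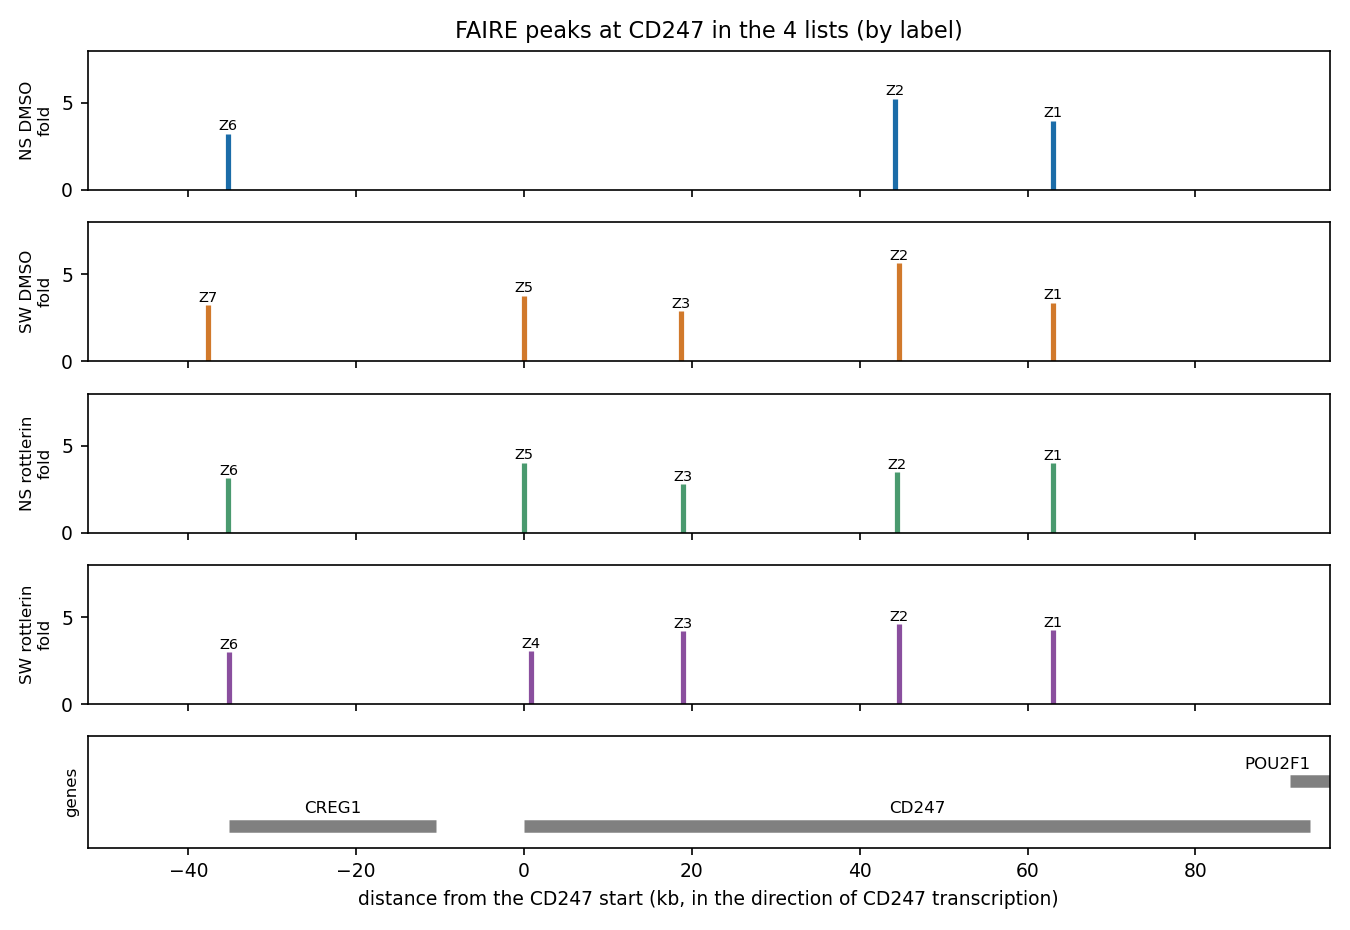
Peaks in each list at CD247, with the distance from the CD247 start in kb along its direction of transcription on the x axis and fold enrichment over total input on the y axis of each row; grey bars are genes. Z1 and Z2, deep in the gene, stand in every row, and no bar stands within 1 kb of the start in the row labelled NS DMSO.

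At CD247 both regions with a peak in every list lay far inside the gene. Z2 (chr1:167442613-167443897, 1285 bp), 44.6 kb past the start in intron 1, had 5.25, 5.63, 3.47 and 4.61. The peaks differed in width, at 380, 1284, 631 and 1264 bp, and the value labelled NS rottlerin was higher than 23.9% of its list's peaks while the others exceeded 83.8%, 90.1% and 69.0% of theirs. Z1 (chr1:167424734-167424976), 63.0 kb past the start and also in intron 1 of the canonical transcript, had 3.98, 3.36, 3.99 and 4.26.

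Z1 differed from Z2 in its setting. Of the 40 CD247 transcripts, 3 start within 300 bp of Z1, and the non-coding gene ENSG00000287218 starts 302 bp away. The central 300 bp of Z1 have 73.7% G and C and 32 CpG, against 47.0% and 4 for the central 300 bp of Z2. Those of Z2 lie outside its peak in the list labelled NS DMSO. The intron stretch printed above, under the Z2 peaks of all 4 lists, has 51.7% G and C and 2 CpG.

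Z3 (chr1:167468635-167469289), 18.9 kb past the start, had no peak in the list labelled NS DMSO and 2.89, 2.79 and 4.19 in the others. At the neighbouring CREG1 start, Z6 (chr1:167522979-167523196) had 3.24, 3.13 and 2.98 and was absent from the list labelled SW DMSO. That list alone held Z7, upstream of CREG1, at 3.23.

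Over both loci, 6 of the 20 regions (95% Wilson interval 14.5 to 51.9%) had a peak in every list: E4, E7, E11, E13, Z1 and Z2. The share of all merged regions was 26.6%, within that interval. Of the 7 member regions within 1 kb of a coding TSS, 3 (42.9%, 15.8 to 75.0) had a peak in every list, against 64.0% of all such regions. These 7 include E13 at the UBE4A start and Z6 at the CREG1 start, and E13 is among the 3. Of the 13 others, 3 (23.1%, 8.18 to 50.3) did, against 17.6%.

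A peak in only 1 list was seen at 8 of the 20 regions (40.0%, 21.9 to 61.3), against 38.8% of all regions. The list labelled NS DMSO had no peak at 10 of the 20 (50.0%, 29.9 to 70.1), against 53.5% of all. It alone had a peak at 3, E1, E5 and E12 (15.0%, 5.24 to 36.0), against 7.83% of all, and all 3 lay on chromosome 11. In each of these cases the share of all regions lay within the interval of the member regions.

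**Figure D4:**
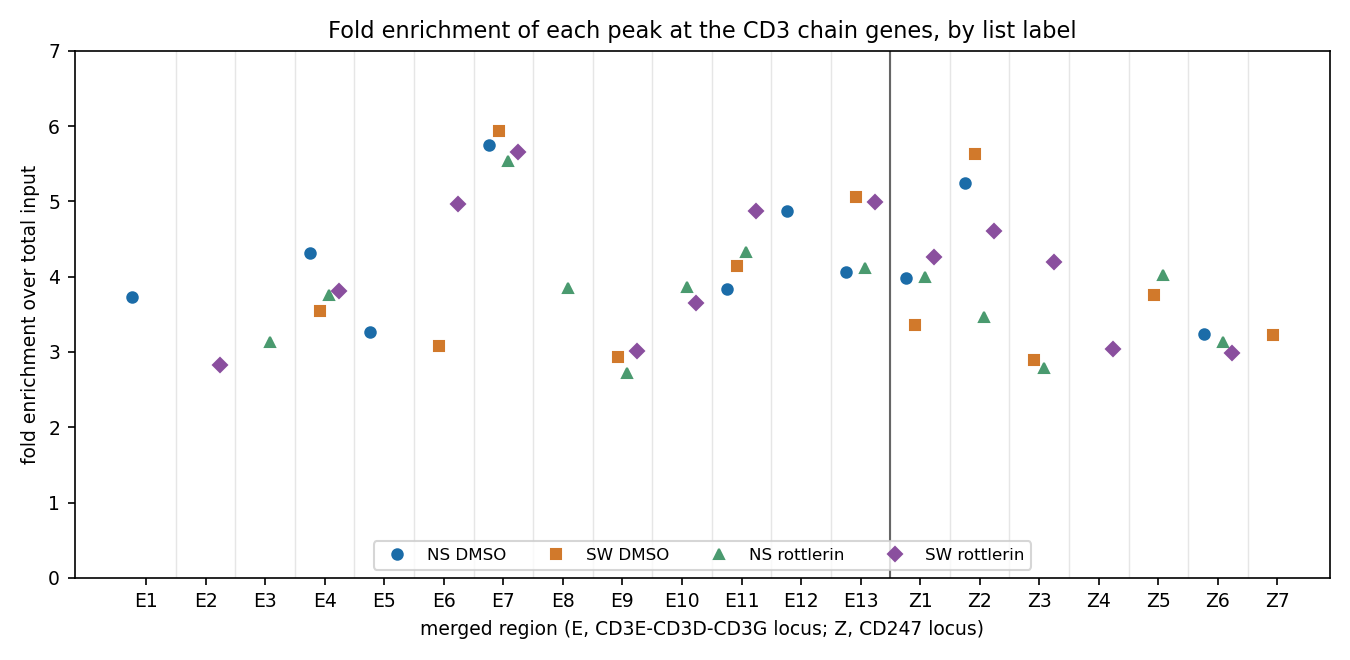
Fold enrichment over total input (y axis) of every peak in the 20 regions (x axis), with 1 symbol per list and a vertical line between the 2 loci. E7 lies between 5.54 and 5.93 in all 4 lists, and Z2 spreads from 3.47 to 5.63.

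Where a region had a peak in both lists, its fold enrichment was set against that of the list labelled NS DMSO, which all 3 ratios share. For the list labelled SW DMSO the median ratio was 1.05 over 6 member regions (0.980 over 12550 regions), and none reached 1.5 or fell to 1/1.5. Of all regions, 1.67% reached 1.5 and 2.18% fell to 1/1.5. For the list labelled NS rottlerin it was 0.965 over 7 (1.04 over 13702), with 1 region at or under 1/1.5, against 1.38% of all, and none at 1.5 or more, against 3.19%. For the list labelled SW rottlerin it was 0.984 over 7 (1.06 over 14037), with none past either limit, against 4.50% at 1.5 or more and 1.54% at 1/1.5 or less.

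The region past the limit was Z2 in CD247, with a ratio of 0.661 in the list labelled NS rottlerin and 1.07 and 0.878 in the others. E11 at CD3D had ratios of 1.08, 1.13 and 1.27 and E4 at CD3E 0.823, 0.869 and 0.884. E7 had 1.03, 0.965 and 0.984. Whether any of these differences exceeds the spread between repeat libraries was not tested.

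The genes whose start was most like that of a member were found by the largest difference, over the 4 lists, in the percentile of fold enrichment within a list, among 9052 genes. For CD3D they were CCDC137 and OXLD1, which share a region (4.75 percentile points), and TMEM120A (4.79). For CD3E they were CENPT and NUTF2, which also share a region (3.16), and HSPD1 (6.37). CD3G was nearest to other genes with a peak in the list labelled NS DMSO alone, OR4D2 (0.137), FABP12 (0.638) and GNAL (0.738), and CD247 to SPATC1L (8.19), RSPH4A (8.49) and ENSG00000267228 (8.70). A list without a peak counted as the lowest possible percentile. CD3G and its neighbours thus differed in the list labelled NS DMSO alone. Their small distances follow from this rule and cannot be set against those of the other members.

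Of 32 annotated genes of the receptor and its proximal signalling, 19 (59.4%) had a peak within 1 kb of the TSS in at least 1 list and 11 (34.4%) in every list. Among 20163 protein-coding genes these shares were 44.9% and 30.4%. The kinases that act on the chains were not alike. LCK had 4.31, 3.93 and 3.87 in the lists labelled NS DMSO, SW DMSO and SW rottlerin, FYN had 3.19, 3.70, 3.44 and 4.05, and ZAP70, like CD247, had no peak in the list labelled NS DMSO and 3.64, 4.06 and 3.81 in the others.

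The adaptors LAT and LCP2 also lacked a peak in the list labelled NS DMSO. LAT had 3.38 and 3.64 in the lists labelled rottlerin, and LCP2 3.49, 4.21 and 3.70 in the other 3 lists. In all, 6 of the 19 genes had a peak but none in that list, and so did 2161 of 9058 coding genes. The adaptor GRAP2 (7.18, 5.51, 8.35 and 5.82) had higher values than any member start in every list.

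Within 1 kb of the start of their records, the receptor's own constant genes had few peaks. TRBC2 had 4.45 in the list labelled SW DMSO, and TRAC, TRDC and TRGC1 had none. The variable segments of the receptor genes were not examined. The coreceptor gene CD4 had none, and CD8A had 3.47 in the list labelled SW rottlerin alone. The costimulatory receptor CD28 had 4.20, 3.53, 5.19 and 4.68, and the phosphatase PTPRC (CD45) 3.82, 4.97, 7.14 and 4.73. Of 5 signalling chains of other immune receptors, CD79A, CD79B, FCER1G and TYROBP had no peak and HCST had 2.95, 3.02 and 2.82 in all lists but that labelled NS DMSO.

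**Figure D5:**
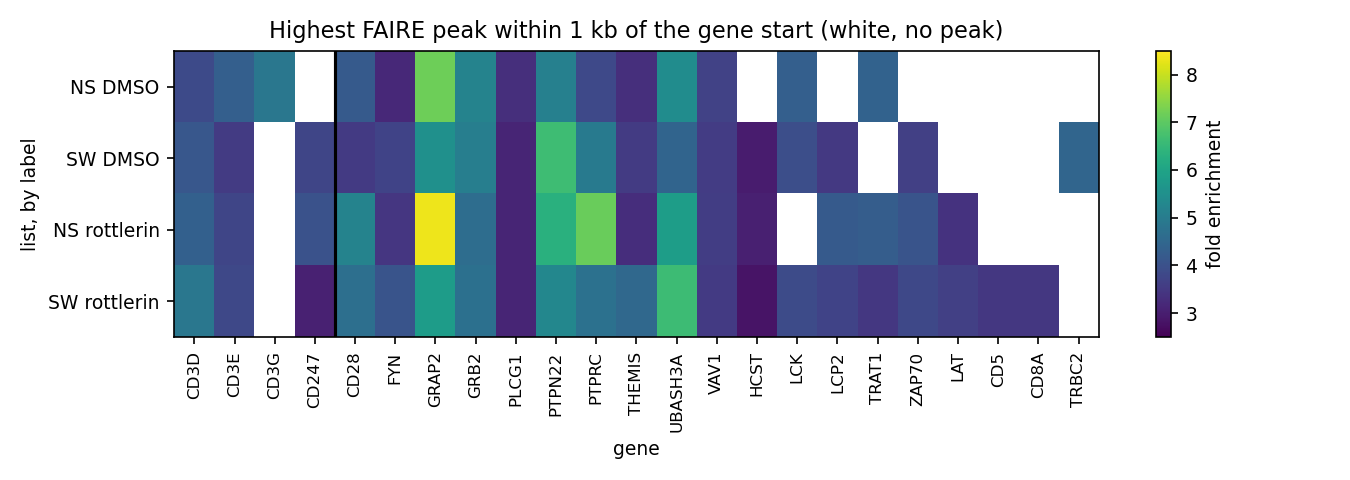
Highest fold enrichment within 1 kb of the gene start (colour) in each list (rows) for the 4 members, left of the black line, and for HCST and signalling genes with a peak (columns, ordered by number of lists; 1 gene is not shown). White marks no peak; CD247, ZAP70, LCP2 and HCST are white in the row labelled NS DMSO and coloured in the other rows.

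The motifs spelled out above were also searched on both strands in the central 300 bp of each region. The share of member regions with a match, beside that of all 40703 regions, was 35.0% and 27.6% for ETS, 35.0% and 29.3% for NFAT, 35.0% and 21.4% for CACCTG and 25.0% and 32.8% for RUNX. TCF/LEF letters were in 6 of the 20, against 23.2% of all. It was 15.0% and 21.0% for GATA and 10.0% and 17.9% for AP1. CAGCTG and CATCTG were each in 4 of the 20, against 17.1% and 21.4% of all. In each of these the share of all regions lay within the member regions' Wilson interval, for example 18.1 to 56.7% for CACCTG.

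For EGR and CRE letters the share of all regions lay below the interval. EGR letters were in 2 regions, E9 and Z4 (10.0%, interval 2.79 to 30.1), against 1.78% of all regions, and CRE letters in 2, E3 and E13 (10.0%, same interval), against 1.97%. Each of these counts rests on 2 regions. Neither region with CRE letters lies at the start or in the body of a member gene. E13 is at the start of UBE4A, and E3 is intergenic, nearest to MPZL2 among coding genes, with a peak in 1 list. The central 300 bp of E9 lie outside its peaks labelled SW DMSO and NS rottlerin, and Z4 had a peak only in the list labelled SW rottlerin. Both EGR matches thus lay under peaks of the list labelled SW rottlerin alone. NFkB letters were in 0 of 20 regions (interval up to 16.1%), against 1.28% of all.

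By region, ETS and CACCTG letters were found together at the starts of CD3E (E4), CD247 (Z5) and UBE4A (E13), and in E5. TCF/LEF and CACCTG letters were found together at the starts of CD3G (E12) and CD247 (Z5), in E1 and in E5. In Z2, whose peaks differ in width, the central 300 bp lie outside the peak of the list labelled NS DMSO and hold ETS and GATA letters, so they are not the intron stretch printed above, which holds TCF/LEF and CACCTG letters. AP1 letters were found in E11 at CD3D and Z4 at CD247. E8 held none of the 12 motifs.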

How the data were processed

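The authors used cutadapt for adapters, Bowtie2 for mapping to hg19 and Picard for duplicates, and MACS2 in broad mode, against total input, for peaks. Versions are not given in the sources used here, and HTSeq is named in the submitters' notes. The deposited lists hold, per peak, a score (10 times −log10 q, without decimals, in all but 3 peaks), the fold enrichment (a ratio to total input), and the −log10 of the p-value and of the q-value. The highest q was between 0.0946 and 0.0983 in each list, and 163 to 427 peaks per list were above 0.05, the cut-off stated in the methods.

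From these, peaks of the 4 lists were merged and the 40703 regions on the autosomes, X and Y were annotated with GENCODE release 44 on GRCh37; the highest peak of a list gave a region its value. Python 3.11.15, numpy 2.4.6, scipy 1.17.1, pysam 0.24.0 and matplotlib 3.10.9 were used. Sequences were read from the GRCh37 genome. Merging and motif search were tested on simulated data, where 5000 of 5000 regions and 1000 of 1000 planted sites were recovered. Named genes were the members, genes with a TSS in the windows or within 1 kb of a member region, the signalling and marker lists, and the 3 nearest genes per member; TRBC1 was not matched. The members and lists were chosen with earlier results of these data known. Alternatives were stricter peak thresholds, equal list sizes, other distances to the TSS, other motif windows and leaving out a list. Read depth is unknown, each group has 1 library, and no test was made. Values of 1 signalling gene and some sequences are not reported here.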

Additional observations from a re-analysis of the deposited data

How the results depend on the processing

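Of 81 values recomputed under alternatives for 23 results, 74 moved by less than the limits set and 7 moved further. The limits were 1.5 times for a count, the 95% interval for a share and an equal rounded value for a median. The medians were those of fold enrichment, recomputed with weights for peak length. They could not move, because no member region held more than 1 peak of a list. With the higher-scoring 50% of each list, 12 regions were left, 3 had a peak in every list and 4 had none in the list labelled NS DMSO; fewer peaks enter by construction. Windows of 100 kb around the TSS gave 36 regions, 21 of them without a peak in the list labelled NS DMSO, and windows of 1 kb gave 12 and 6, again by construction. Among the shares within their interval, some still moved by 1.5 times or more. Over the central 500 bp of a region, NFAT letters were in 55.0% and GATA in 35.0% of member regions. A longer window can hold more matches by construction. Over the whole region EGR letters were in 15.0%. In both settings AP1 was in 15.0%, and CAGCTG and CATCTG in 6 of the 20 each. Shares of all regions in these settings are not given here, so these values cannot be set against the shares over 300 bp. With 18977 peaks in each list, 17 regions were left, 5 with a peak in every list. There, and with a q-value limit of 0.01, CD3D and CD3E kept a peak over the start in 4 lists, CD3G in 1 and CD247 in 2; with the higher-scoring 50% these were 4, 1, 1 and 1. Without the list labelled NS DMSO there were 17 regions. No paired analysis was possible because the lists carry 1 library per group. Unknown read depth limits every missing peak: fewer reads and less open chromatin cannot be told apart.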

Other observations

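Between 50 and 100 kb from the member starts, a region within MPZL3 (chr11:118111746-118112532) had no peak in the list labelled NS DMSO and fold enrichments of 5.68, 4.95 and 5.61 in those labelled SW DMSO, NS rottlerin and SW rottlerin. At the start of JAML, an adhesion molecule gene of leukocytes, a region (chr11:118095554-118095908) had 4.98 and 3.44 in the lists labelled NS DMSO and NS rottlerin and no peak in those labelled SW. On the other side of the cluster, the start of ATP5MG, an ATP synthase subunit gene, had 5.02, 4.24, 4.49 and 4.38. Beyond CD247, a region upstream of RCSD1 (chr1:167569341-167569687) had 4.68, 3.66, 6.06 and 5.10, of which the value in the list labelled NS rottlerin, 6.06, was above every member value in that list. Each list comes from 1 library, and none of these differences was tested.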
